A study of Mus musculus with 6 samples.

Results

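The zinc transporters and metallothioneins described here are 10 genes: the metallothioneins Mt1 and Mt2, the metal-sensing transcription factor Mtf1, the importers Slc39a1, Slc39a2, Slc39a6 and Slc39a10, and the exporters Slc30a1, Slc30a5 and Slc30a7. They were taken by gene symbol from the 16111 identified genes of the deposited table, and all 10 were found. The list was drawn up with the comparison of the genotypes already known, so the members' differences between genotypes are given as descriptions, without p-values. The samples were macrophages grown from livers of mouse fetuses at stage E13.5 (embryonic days), from wild-type fetuses (WT, n = 3) and from fetuses without the aryl hydrocarbon receptor repressor (AhRR-/-, here Ahrr-/-, n = 3), all on the strain named C57BL/6 RCC. Both groups were kept for 5 weeks in RPMI medium with fetal calf serum and 2% GM-CSF, a macrophage growth factor, and non-adherent cells were sequenced as polyA RNA. There was no culture without GM-CSF, the kind of Ahrr allele is not described in the labels, and each library carries a mouse number of its own within its genotype.

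Cells hold zinc tightly because it is needed by many enzymes and DNA-binding proteins but is toxic when free. ZIP proteins (genes named Slc39a) move zinc into the cytosol from outside or from organelles, ZnT proteins (Slc30a) move it out of the cytosol or into organelles, and metallothioneins are small cysteine-rich proteins that bind zinc and copper. Mtf1 senses cytosolic zinc and switches on Mt1, Mt2 and Slc30a1 through metal response elements, short DNA motifs with the core TGCRCNC. In macrophages, GM-CSF is known to drive metallothionein and zinc transporter expression as part of withholding zinc from intracellular microbes, and the aryl hydrocarbon receptor that Ahrr represses is a ligand-activated transcription factor.

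Library totals lay between 3556106 and 41668336 counts, lowest in Ahrr-/- replicate 1 and highest in Ahrr-/- replicate 2. Levels below are counts per 1000000 counts of the library (CPM), and 3 counts, the floor of detection, were 0.0720 to 0.844 CPM. Fitted log2 fold changes also use a scaling factor per library (TMM, 0.904 to 1.04), which CPM, sums and overlaps do not. Differences in CPM and fitted log2 fold changes are therefore on slightly different scales. Ahrr lay between 4.29 and 5.32 CPM in WT and between 1.21 and 2.57 CPM in Ahrr-/- libraries (log2 fold change -1.21, SE 0.26, edgeR adjusted p = 0.0151). That call was lost after thinning all libraries to the smallest total (-0.74, adjusted p = 0.301), without WT replicate 1 (adjusted p = 0.0631) and without WT replicate 3 (adjusted p = 0.0502). WT replicate 2 stood apart from the other WT libraries, with a chi-square per degree of freedom of 175 against WT replicate 1 and 70.0 against WT replicate 3, where those 2 differed by 5.79 and the Ahrr-/- pairs by 10.7 to 17.2. That measure grows with depth, so the pairs are not on a common scale. All 8 macrophage markers examined were present, with a summed level of 20848 to 26353 CPM in WT and 14892 to 22244 CPM in Ahrr-/-. Of 4 hepatocyte markers only Afp and of 5 erythroid markers only Alas2 were among the identified genes, at no more than 0.864 CPM, and none of the 5 neutrophil, 5 mast cell and basophil or 3 lymphocyte markers was. Of 3 megakaryocyte markers only Itga2b was identified, at 2.70 to 3.01 CPM in WT and 1.21 to 1.97 CPM in Ahrr-/-. Of 3 dendritic cell markers only Zbtb46 was, at 5.01 to 5.88 and 4.15 to 4.92 CPM, and both genes were lower in Ahrr-/- without overlap. Of 3 fibroblast markers only Pdgfra was, at 2.38 to 9.68 and 1.62 to 3.94 CPM, and of 2 endothelial markers only Cdh5, at no more than 0.562 CPM. The part of these marker differences in the zinc genes' values was not tested.

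The coding sequences of the metallothioneins are shown because the proteins are defined by their cysteines and because near-identical copies could trade reads. Cysteine codons are in capitals, and both run 5′ to 3′ on the plus strand of chromosome 8 (GENCODE M21, GRCm38).
Mt1: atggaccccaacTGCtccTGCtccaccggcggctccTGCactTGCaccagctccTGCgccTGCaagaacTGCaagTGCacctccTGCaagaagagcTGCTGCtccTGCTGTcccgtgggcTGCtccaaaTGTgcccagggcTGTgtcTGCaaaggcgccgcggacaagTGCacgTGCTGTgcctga
Mt2: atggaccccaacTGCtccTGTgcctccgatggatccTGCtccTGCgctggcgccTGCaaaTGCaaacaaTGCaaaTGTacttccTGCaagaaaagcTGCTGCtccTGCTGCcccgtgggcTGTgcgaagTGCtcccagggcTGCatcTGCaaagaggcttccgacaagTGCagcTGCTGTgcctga
Each holds 61 codons before the stop, 20 of them for cysteine, and all 20 stand at the same place in both. The sequences share 148 of 186 bases (79.6%), and their longest identical run is 20 bases. No stretch of 75 bases, the read length, in an annotated Mt1 or Mt2 transcript occurs in the same orientation in a transcript of another gene.

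The motif that Mtf1 binds was looked for before the coding starts of Mt1 and Mt2, as TGCACNC or TGCGCNC on both strands, and is printed in capitals within 30 bases of transcript. The annotated transcripts used begin upstream of a TATAAA box, and all 7 matches lie upstream of that box, on the plus strand of GRCm38 as printed.
Mt1, chr8:94179082-94179111: agggagctcTGCACTCcgcccgaaaagtgc
Mt1, chr8:94179098-94179127: cgcccgaaaagTGCGCTCggctctgccaag
Mt1, chr8:94179162-94179191: aaccgcctgctGGGTGCAaaccctttgcgc
Mt1, chr8:94179176-94179205: tgcaaacccttTGCGCCCggactcgtccaa
Mt2, chr8:94172665-94172694: agaaaaagggcGTGTGCAggcggcgggggc
Mt2, chr8:94172684-94172713: gcggcgggggcGCGTGCAtggtgccttcca
Mt2, chr8:94172718-94172747: ggcggagctttTGCGCTCgacccaatactc
In the 180 bases before the start codon, Mt1 held 2 matches and Mt2 held 3, and both held TATAAA. Of 12060 genes with such a stretch, 17.4% held at least 1 match, 3.24% at least 2, 0.589% at least 3, and 3.18% held TATAAA. Slc39a10 held 2 matches in that stretch, Slc39a6 and Slc30a5 held 1 each, and Slc39a2, Slc30a1, Slc30a7 and Mtf1 held 0.

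In the 250 bases before the RefSeq start (GRCm38.p6), the Mt1 window held 1 match to the metal response core, the Mt2 window 3, Slc30a1 and Slc30a5 1 each, and Slc39a2, Slc39a1, Slc30a7, Mtf1 and both Slc39a10 windows 0. Of 32851 such windows 21.4% held at least 1. The core of the AhR/Arnt motif, GCGTG on either strand, was found once in each of the Mt1, Mt2, Slc30a1 and Slc30a5 windows and in 28.2% of all windows, and in Mt2 it overlapped a metal response match. The windows of Mt1 and Slc39a2, the members past the threshold between genotypes, are printed with the metal response match in capitals.
Mt1, chr8:94178839-94179088, plus strand: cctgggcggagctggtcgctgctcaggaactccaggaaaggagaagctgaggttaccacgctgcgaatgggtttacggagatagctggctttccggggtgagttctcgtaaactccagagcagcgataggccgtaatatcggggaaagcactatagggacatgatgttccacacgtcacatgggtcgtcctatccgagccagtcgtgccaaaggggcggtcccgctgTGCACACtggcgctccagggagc
Slc39a2, chr14:51893360-51893609, plus strand: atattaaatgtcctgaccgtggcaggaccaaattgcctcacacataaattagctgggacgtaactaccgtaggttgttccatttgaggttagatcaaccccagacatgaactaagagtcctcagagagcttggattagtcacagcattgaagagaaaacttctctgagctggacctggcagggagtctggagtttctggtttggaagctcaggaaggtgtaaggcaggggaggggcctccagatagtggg
A match is a run of letters and no evidence of binding, and a window without one says only that these letters are not in it. The RefSeq windows of Mt1 and Mt2 end before their matches and TATAAA boxes printed further above. The RefSeq window of Slc39a2 lies inside the GENCODE span of that gene.

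Mt1, which had more counts than Mt2 in every library, was lower in all 3 Ahrr-/- libraries than in any WT library. Mt1 (ENSMUSG00000031765.8, chromosome 8, 94179082 to 94180327, plus strand) lay at 371, 291 and 384 CPM in WT replicates 1, 2 and 3. In Ahrr-/- replicates 1, 2 and 3 it lay at 227, 277 and 250 CPM. The groups did not overlap, and the nearest values were 291 CPM in WT replicate 2 and 277 CPM in Ahrr-/- replicate 2. Means were 349 ± 50 and 252 ± 25 CPM (SD, n = 3), and the log2 fold change was -0.54 (SE 0.10), or 1.45-fold lower in Ahrr-/-. WT replicate 2, which stood apart within WT, was the lowest WT library for Mt1, and without it the log2 fold change was -0.61. Without Ahrr-/- replicate 1 the log2 fold change was -0.49, and without Ahrr-/- replicate 2 it was -0.61. In RNA pooled from the non-adherent cells of a culture, fewer cells carrying a transcript and less of it per cell cannot be told apart.

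Mt2, its neighbour on the same strand, did not share that pattern. Mt2 (ENSMUSG00000031762.7, chromosome 8, 94172664 to 94173568) lay at 28.2, 24.1 and 25.4 CPM in WT replicates 1, 2 and 3. In Ahrr-/- replicates 1, 2 and 3 it lay at 14.3, 36.2 and 23.2 CPM, so the Ahrr-/- libraries held both the lowest and the highest value and the groups overlapped. The log2 fold change was -0.05 (SE 0.24). The coefficient of variation of Mt2 was 8.10% in WT and 44.8% in Ahrr-/-, against 14.4% and 9.92% for Mt1. The value without Ahrr-/- replicate 2 was -0.47 and without Ahrr-/- replicate 1 was 0.14 on the log2 scale, neither past the threshold.

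The counts of Mt2 carry an uncertainty that those of Mt1 do not. An exon of the antisense RNA Gm45774 lies opposite 432 of the 588 exon bases of Mt2 (73.5%), and whether counting used strand is not given in the sources used here, so reads of the pair cannot be told apart. Gm45774, looked up after the values were seen, had 4.69, 3.97 and 6.30 CPM in WT and 1.12, 2.86 and 2.12 CPM in Ahrr-/- replicates 1, 2 and 3 (log2 fold change -1.11, SE 0.26, edgeR adjusted p = 0.0201). It was lower in Ahrr-/- without overlap, as Mt1 was. The call on Gm45774 was lost without WT replicate 1 (adjusted p = 0.0715), WT replicate 3 (0.0674) or Ahrr-/- replicate 3 (0.0712).

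Taken as a pair, Mt1 and Mt2 summed to 399, 315 and 409 CPM in WT and to 242, 313 and 274 CPM in Ahrr-/- replicates 1, 2 and 3. The groups did not overlap, though WT replicate 2 and Ahrr-/- replicate 2 were 315 and 313 CPM. The log2 ratio of the group means was -0.44, with -0.55 without WT replicate 2 and -0.35 without Ahrr-/- replicate 1. These ratios are of CPM without scaling factors, so they are not on the scale of the fitted value of Mt1. Mt1 made up 92.9%, 92.3% and 93.8% of the metallothionein counts in WT. In Ahrr-/- it made up 94.1% (95% Wilson interval 92.3% to 95.5%), 88.4% (87.9% to 89.0%) and 91.5% (90.4% to 92.5%). Reads carry no molecular identifiers, so these intervals cover counting error only. The shares and the sums also carry the antisense uncertainty of Mt2, whose size was not tested. Ahrr-/- replicate 2 stood below the other 5 libraries in this share, with an interval that did not reach theirs.

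Mtf1 (ENSMUSG00000028890.13, chromosome 4, 124802104 to 124849800), the zinc sensor, lay at 25.3, 24.9 and 26.2 CPM in WT and at 23.9, 30.2 and 24.1 CPM in Ahrr-/- replicates 1, 2 and 3. The groups overlapped, and the log2 fold change was -0.01 (SE 0.12). Exons of 1110065P20Rik lie opposite 8.1% of the exon bases of Mtf1. Ahrr-/- replicate 2 was the highest library for Mtf1, as it was for Mt2, and without it the log2 fold change was -0.15.

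**Figure D1:**
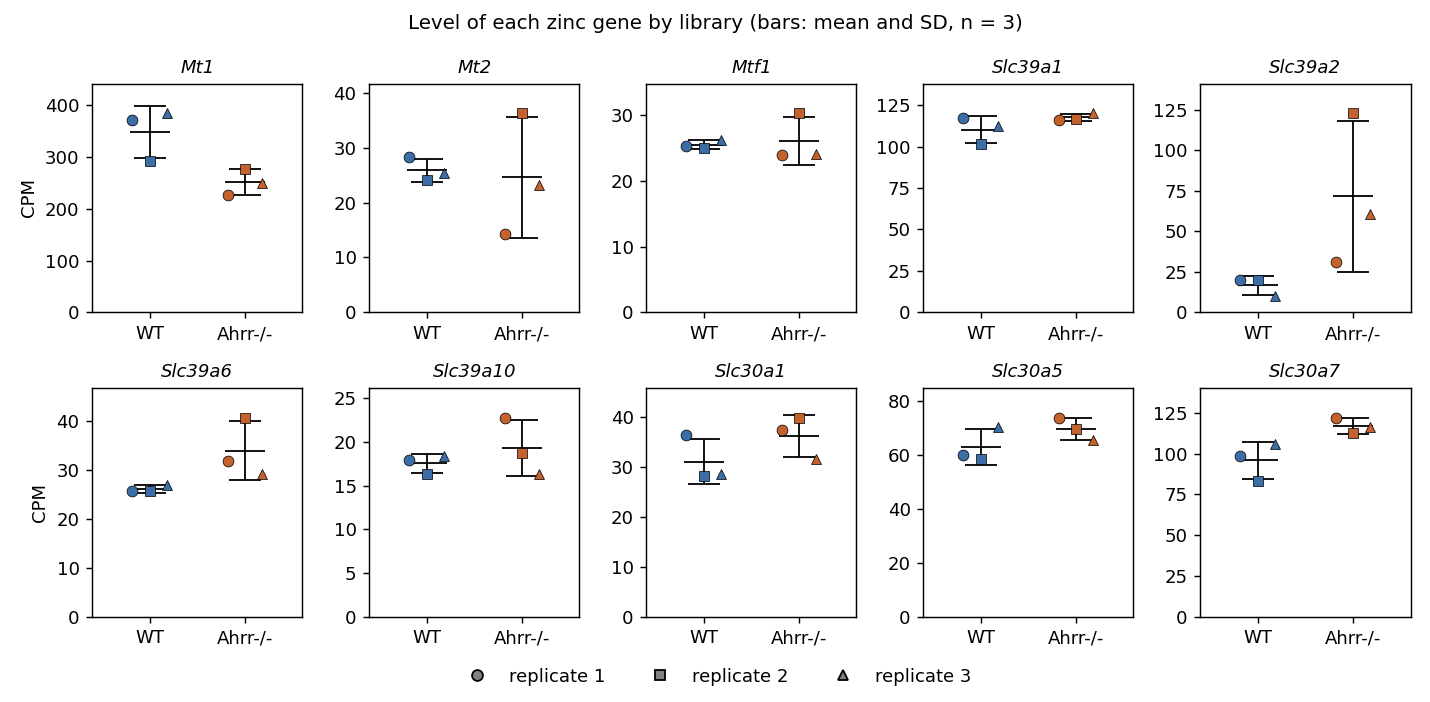
Level of each of the 10 genes in CPM (vertical axes, each from 0) in the 3 WT and 3 Ahrr-/- libraries, with marker shapes for replicates and bars for the mean and SD. Mt1 is lower and Slc39a2 higher in every Ahrr-/- library than in any WT library, and Slc39a2 spans 31.2 to 123 CPM within Ahrr-/-.

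Among the importers, Slc39a2, which encodes the plasma membrane zinc importer ZIP2, differed most. Slc39a2 (ENSMUSG00000072572.9, chromosome 14, 51892889 to 51896745) lay at 20.3, 19.999 and 9.95 CPM in WT replicates 1, 2 and 3. In Ahrr-/- replicates 1, 2 and 3 it lay at 31.2, 123 and 61.0 CPM. Every Ahrr-/- library was above every WT library, but the Ahrr-/- libraries were spread widely, with a coefficient of variation of 65.2% against 35.2% in WT. Means were 16.7 ± 5.9 and 71.7 ± 46.7 CPM (SD, n = 3), and the log2 fold change was 2.06 (SE 0.44), or 4.16-fold higher in Ahrr-/-. The order within Ahrr-/- followed the library totals, which are lowest in replicate 1 and highest in replicate 2. In WT, replicates 1 and 2 had the highest and lowest totals, 21939809 and 6300421 counts, and lay at 20.3 and 19.999 CPM. With all libraries thinned to the smallest total, the log2 fold change was 2.09. Thinning keeps the share of a gene in each library on average, so this value does not bear on that order. A part of depth in the Slc39a2 level was not tested. Without WT replicate 2 the log2 fold change was 2.20. Without Ahrr-/- replicate 2, the highest library for Slc39a2, it was 1.42.

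Slc39a2 shares sequence with the upstream gene Mettl17, a mitochondrial ribosome assembly factor, on the same strand. The 2 genes overlap over 151 exon bases (4.38% of those of Slc39a2), through a retained-intron transcript of each. Mettl17 lay at 27.9, 22.7 and 23.3 CPM in WT and at 30.9, 37.2 and 32.7 CPM in Ahrr-/- replicates 1, 2 and 3 (log2 fold change 0.38, SE 0.11, edgeR adjusted p = 0.0459). Mettl17 was past the threshold in 5 of 16 alternatives, and its adjusted p was 0.0796 with DESeq2, 0.0856 with the replicate block and 0.0863 after thinning. Counts of Slc39a2 per count of Mettl17 were 0.726, 0.881 and 0.428 in WT and 1.01, 3.30 and 1.87 in Ahrr-/-. The ratio was higher in each Ahrr-/- library than in any WT library. Its numerator is the Slc39a2 count itself, so this separation adds nothing on shared reads. The fitted fold of Mettl17 was 1.30. How many Slc39a2 counts came from the shared bases was not tested.

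The other 3 importers differed less. Slc39a6 (ENSMUSG00000024270.11, chromosome 18, 24579881 to 24603817), which encodes ZIP6, lay at 25.6, 25.6 and 26.9 CPM in WT and at 31.8, 40.6 and 29.1 CPM in Ahrr-/- replicates 1, 2 and 3. The groups did not overlap, but the gene was not past the threshold, with a log2 fold change of 0.33 (SE 0.13) that was 0.15 without Ahrr-/- replicate 2. Slc39a1 (ENSMUSG00000052310.9, chromosome 3, 90248172 to 90253612), which encodes the widely expressed importer ZIP1, was close to equal in both genotypes. It lay at 117, 101 and 112 CPM in WT and at 116, 117 and 120 CPM in Ahrr-/-, with a log2 fold change of 0.02 (SE 0.07) that was -0.01 with upper-quartile scaling. Of its 2290 distinct 75-base stretches, 411 also occur in the pseudogene Slc39a1-ps, which had at most 0.844 CPM in any library. Slc39a10 (ENSMUSG00000025986.6, chromosome 1, 46807544 to 46892852), which encodes ZIP10 and is known to be repressed by Mtf1 when zinc is plentiful, lay at 18.0, 16.3 and 18.4 CPM in WT and at 22.8, 18.7 and 16.4 CPM in Ahrr-/-. Its groups overlapped, with a log2 fold change of 0.02 (SE 0.13) that was also -0.01 with that scaling.

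None of the 3 exporters was past the threshold. Slc30a7 (ENSMUSG00000054414.4, chromosome 3, 115938973 to 116007406), which encodes the Golgi zinc transporter ZnT7, lay at 98.4, 83.3 and 106 CPM in WT and at 122, 113 and 116 CPM in Ahrr-/- replicates 1, 2 and 3. Its groups did not overlap, and its log2 fold change was 0.21 (SE 0.08), or 1.16-fold. With offsets for GC content this was 0.11. Exons of Gm43106 and Gm6649 lie opposite 16.0% of its exon bases.

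Slc30a5 and Slc30a1 overlapped between the genotypes. Slc30a5 (ENSMUSG00000021629.10, chromosome 13, 100802648 to 100833427), whose protein ZnT5 loads zinc into enzymes of the secretory pathway, lay at 59.7, 58.4 and 70.3 CPM in WT and at 73.7, 69.5 and 65.3 CPM in Ahrr-/-. Its log2 fold change was 0.07 (SE 0.09), and -0.05 with offsets for GC content. Slc30a1 (ENSMUSG00000037434.7, chromosome 1, 191906767 to 191913247), whose protein ZnT1 exports zinc from the cell and which Mtf1 activates, lay at 36.5, 28.3 and 28.7 CPM in WT and at 37.4, 40.0 and 31.7 CPM in Ahrr-/-. Its log2 fold change was 0.14 (SE 0.13). Exons of 1700034H15Rik lie opposite 8.92% of the exon bases of Slc30a1. Thus Mt1 and Slc30a1, both known Mtf1 targets, had fold changes of opposite sign, and that of Slc30a1 was about the size of its error.

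Counted together, 2 of the 10 genes were past the threshold of an edgeR adjusted p under 0.05 over 11408 tested genes, Slc39a2 higher and Mt1 lower, where 19.6% of all tested genes were past it. The CPM of the groups did not overlap for 4 of the 10, Mt1, Slc39a2, Slc39a6 and Slc30a7, against 36.6% of all tested genes. All 10 passed the filter on low counts. The median log2 fold change was 0.05 over the 10 and 0.01 over all tested genes. Across all tested genes, 99.2% had a smaller absolute log2 fold change than Slc39a2 and 83.1% a smaller one than Mt1. DESeq2 and limma-voom put the same 2 genes past the threshold, but the fit without WT replicate 1 put neither there, and Slc39a2 was also not past it without WT replicate 3.

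**Figure D2:**
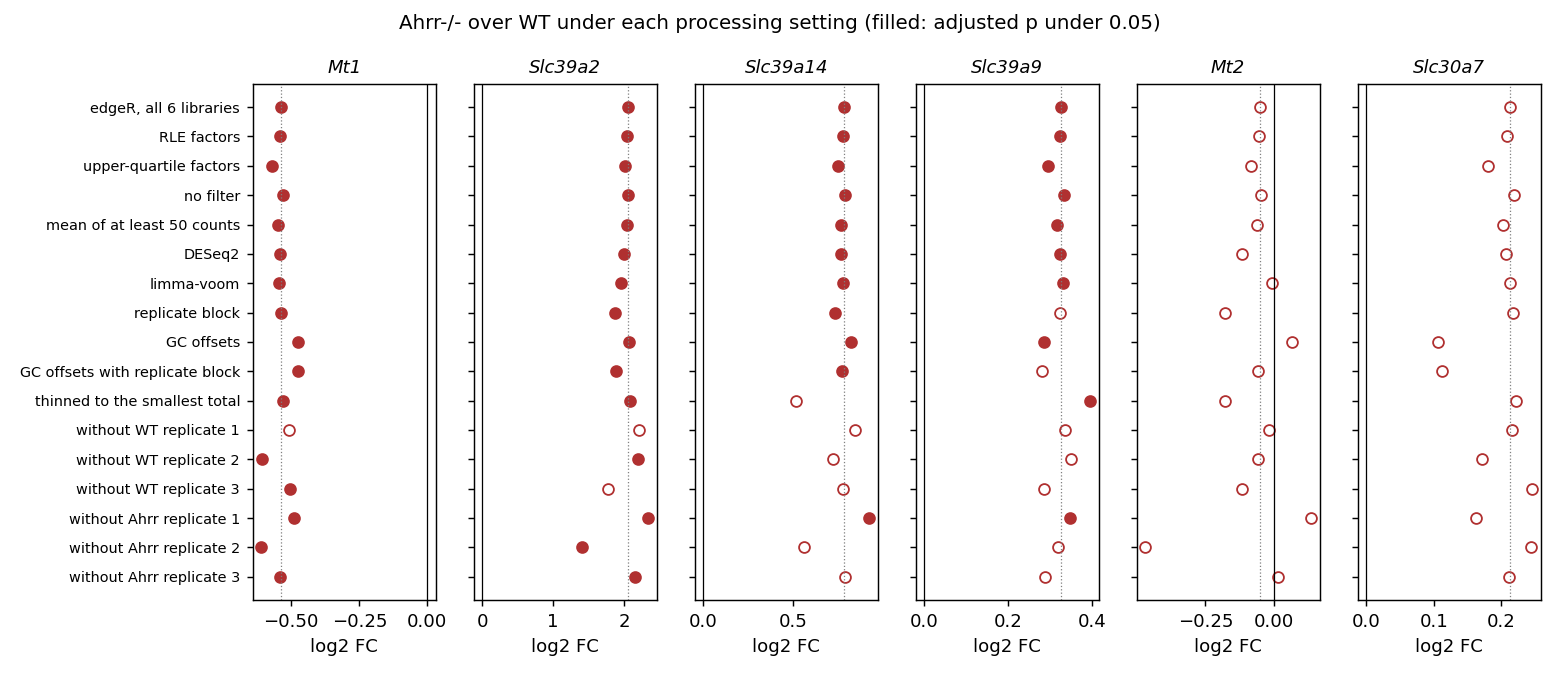
Log2 fold change of 6 genes, Ahrr-/- over WT (horizontal axes), under the reported fit and 16 alternatives (rows), filled where the adjusted p was under 0.05. Mt1 ranges from -0.61 to -0.48 and Slc39a2 from 1.42 to 2.34, and the lowest value of Slc39a2 is that without Ahrr-/- replicate 2.

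Levels were also put on a per-length scale, CPM per 1000 exon bases, to compare genes with each other. In WT the order was Mt1 at 280 ± 40, Slc39a1 at 46.6 ± 3.4, Mt2 at 44.0 ± 3.6, Slc30a7 at 8.62 ± 1.03, Slc30a5 at 8.61 ± 0.90, Slc39a6 at 6.39 ± 0.19, Slc30a1 at 5.94 ± 0.88, Slc39a2 at 4.86 ± 1.71, Slc39a10 at 2.88 ± 0.17 and Mtf1 at 2.86 ± 0.07 (SD, n = 3). The ranges of neighbours in this order did not overlap between Mt1 and Slc39a1, between Mt2 and Slc30a7, and between Slc30a5 and Slc39a6, and overlapped for all other neighbours. In Ahrr-/- the order was the same except that Slc39a2, at 20.8 ± 13.6 (SD, n = 3), moved from the 8th to the 4th place, where its range overlapped those of Mt2 and Slc30a7. The exon length used for Mt1, 1246 bases, is the union of its annotated transcripts and equals the whole span of the gene, so its per-length level depends on that annotation. The per-length level of Mt2 carries the antisense uncertainty given above.

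**Figure D3:**
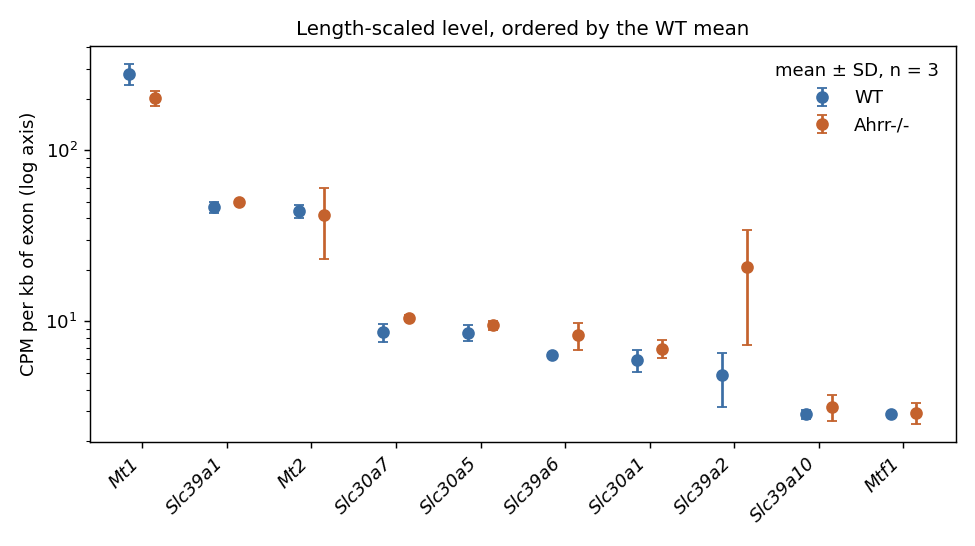
Mean level of the 10 genes in CPM per 1000 exon bases (logarithmic vertical axis) in WT and Ahrr-/-, with SD over 3 libraries, ordered by the WT mean. Mt1 stands highest in both genotypes, and Slc39a2 shows the widest separation, 4.86 against 20.8.

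The remaining members of the families were examined across the same libraries. The lists from here on were also chosen with earlier results of these data known, so their adjusted p-values are descriptive. Of the 10 other ZIP genes, Slc39a4 was not among the identified genes, Slc39a5 had too few counts to test, and 2 of the 8 tested rose while none fell, against 9.62% of all tested genes higher and 9.95% lower. Slc39a14, whose protein ZIP14 imports zinc, iron and manganese, rose from 31.8, 24.1 and 30.5 CPM in WT to 36.6, 65.4 and 51.2 CPM in Ahrr-/- replicates 1, 2 and 3. The groups did not overlap, and the difference was 0.78 on the log2 scale (SE 0.18, edgeR adjusted p = 0.0174). Slc39a9, whose protein ZIP9 resides at the Golgi and plasma membrane, rose from 65.4, 60.5 and 62.8 to 77.6, 84.3 and 86.8 CPM, again without overlap (log2 fold change 0.33, SE 0.08, edgeR adjusted p = 0.0227). Both calls were lost without any 1 of the WT libraries and without Ahrr-/- replicate 2 or 3, that of Slc39a14 also after thinning, and that of Slc39a9 also with the replicate block (adjusted p = 0.0676). Exons of Erh lie opposite 4.52% of the exon bases of Slc39a9.

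The 6 other tested ZIP genes were not past the threshold in the reported fit. Slc39a12 had the largest of these differences, at 1.96, 2.70 and 2.24 CPM in WT and 1.97, 1.22 and 1.31 CPM in Ahrr-/- (log2 fold change -0.80, SE 0.28, edgeR adjusted p = 0.0757), close to the floor of the shallowest library. Slc39a12 was past the threshold with GC offsets (-0.90, adjusted p = 0.0491) and without Ahrr-/- replicate 1 (-0.90, adjusted p = 0.0388). Log2 fold changes were -0.21 (SE 0.14) for Slc39a3, -0.16 (SE 0.11) for Slc39a13, 0.03 (SE 0.10) for Slc39a11, 0.17 (SE 0.22) for Slc39a8 and 0.20 (SE 0.14) for Slc39a7. Slc39a11 was -0.0030 with upper-quartile scaling. The gene Gm20427 covers most of the exon bases of Slc39a7 on the same strand (80.7%), so its counts are uncertain. The 12 tested ZIP genes summed to 396, 349 and 384 CPM in WT and 414, 570 and 488 CPM in Ahrr-/- replicates 1, 2 and 3, without overlap. Means of the sum were 377 and 491 CPM, and those of Slc39a2 alone within it 16.7 and 71.7 CPM. Of the 12 genes, 3 had a log2 fold change below 0. Among all tested genes taken singly, 36.6% also showed no overlap.

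Of the 7 other ZnT genes, Slc30a2, Slc30a3, Slc30a8 and Slc30a10 were not among the identified genes. Of the 3 tested, edgeR, DESeq2 and limma-voom each called 0, and 1 reached an unadjusted p under 0.05 in edgeR. Over all 11408 tested genes, edgeR called 19.6%, and 4087 had an unadjusted p under 0.05. That gene, Slc30a9, whose protein moves zinc out of mitochondria, lay at 102, 97.5 and 101 CPM in WT and 130, 130 and 111 CPM in Ahrr-/- replicates 1, 2 and 3, without overlap (log2 fold change 0.23, SE 0.09, edgeR adjusted p = 0.102). After thinning, Slc30a9 was past the threshold (0.34, adjusted p = 0.0464). Slc30a4, a vesicle and Golgi exporter, was at 21.3 ± 0.6 and 20.4 ± 1.6 CPM (SD, n = 3) with a log2 fold change of -0.14 (SE 0.11). Slc30a6, which pairs with ZnT5, was at 11.9 ± 0.2 and 12.9 ± 0.4 CPM (SD, n = 3) with a log2 fold change of 0.04 (SE 0.11). Over the 6 tested ZnT genes the sum was 329, 301 and 339 CPM in WT and 398, 386 and 355 CPM in Ahrr-/-. Mt3 and Mt4, the neural and epithelial metallothioneins, were not among the identified genes.

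**Figure D4:**
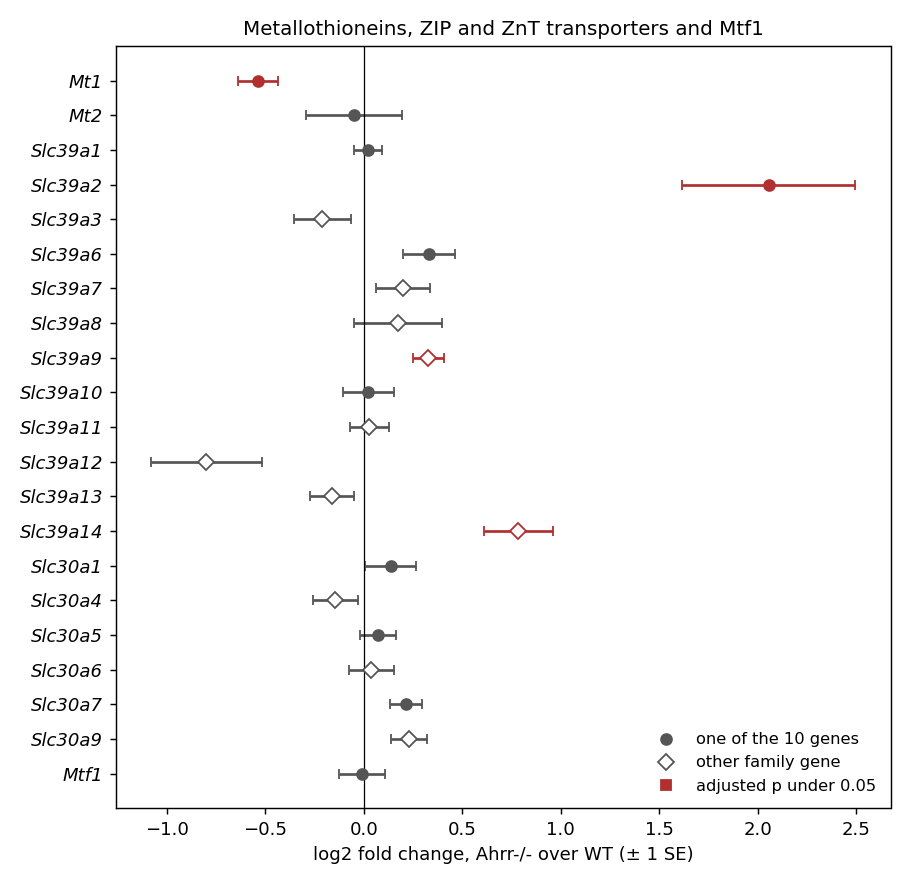
Log2 fold change with 1 SE, Ahrr-/- over WT (horizontal axis), of the tested metallothionein, ZIP and ZnT genes and of Mtf1. Filled circles are the 10 genes, open diamonds the other family genes, and red marks an adjusted p under 0.05: Mt1 at -0.54, Slc39a2 at 2.06, Slc39a9 at 0.33 and Slc39a14 at 0.78.

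Known targets of Mtf1 outside the 10 genes were also examined. Of Gclc, Selenow, Ndrg1, Csrp1, Pgf and Hamp, 4 were tested and 0 passed with edgeR, DESeq2 or limma-voom, while 3 had an unadjusted p under 0.05 in edgeR. Over all tested genes, 4087 of 11408 had an unadjusted p under 0.05. With 4 genes tested and 19.6% of all genes called, a count of 0 does not set the list apart. Gclc, the catalytic subunit for glutathione synthesis, was 23.8 ± 2.1 and 32.6 ± 6.2 CPM (SD, n = 3) in WT and Ahrr-/- (log2 fold change 0.40, SE 0.14, edgeR adjusted p = 0.0737). Selenow, a small selenoprotein, was 36.4 ± 7.2 and 25.9 ± 7.9 CPM (SD, n = 3), a log2 difference of -0.49 (SE 0.19, edgeR adjusted p = 0.0947). For Ndrg1 the log2 difference was -0.89 (SE 0.32, edgeR adjusted p = 0.0772). For Csrp1, the remaining tested gene, it was 0.09 (SE 0.08, edgeR adjusted p = 0.481).

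Copper genes were included because metallothioneins also bind copper. Since this list too was chosen with earlier results known, its adjusted p-values describe the fit and are not fresh tests. Of 14 listed, 11 were tested, 1 rose and 1 fell, a share near the 19.6% called among all tested genes. Sod1, the cytosolic superoxide dismutase that holds copper and zinc, fell from 98.2, 84.8 and 94.7 CPM in WT to 53.1, 45.8 and 50.6 CPM in Ahrr-/- replicates 1, 2 and 3. The groups were far apart, at -0.98 on the log2 scale (SE 0.09, edgeR adjusted p = 7.85e-04), and Sod1 was past the threshold in 16 of 16 alternatives. Slc31a1, the plasma membrane copper importer, rose from 53.1 ± 1.4 to 67.9 ± 4.2 CPM (SD, n = 3), by 0.29 on the log2 scale (SE 0.08, edgeR adjusted p = 0.0413), but was past the threshold in 4 of 16 alternatives. The median log2 fold change of the 11 genes was 0.14. Of 9 other zinc-handling genes 5 were tested and 0 passed with edgeR or DESeq2 and 1 with limma-voom, with 2 at an unadjusted p under 0.05, beside the same 19.6% called and 4087 of 11408 genes at an unadjusted p under 0.05.

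The genes most like the mean of Mt1 and Mt2, and those most like Slc39a2, were listed over the 6 libraries. They were sought among 10030 genes with a mean of at least 50 counts, by Pearson correlation of log2 CPM. For the mean of Mt1 and Mt2 they were Phldb1 (0.991), Fam50a (0.983), Mtg1 (0.983), Snrpg (0.982) and Map3k20 (0.981). Mt1 and Mt2 differed in pattern, so their mean stands for neither gene alone. Each of these genes overlapped between the genotypes and was not past the threshold, unlike Mt1. For Slc39a2 they were the potassium-chloride cotransporter gene Slc12a4 (0.996), Ints12 (0.994), Spp1 (0.993), Fbxl2 (0.992) and Smndc1 (0.991). Like Slc39a2, none of these overlapped between the genotypes, and Spp1 and Fbxl2 were past the threshold. Their likeness to Slc39a2 thus partly restates the genotype difference. Leaving out any 1 library gave correlations of 0.931 to 0.996 for the first set and 0.982 to 0.999 for the second. Spp1, which encodes the secreted phosphoprotein osteopontin, lay at 111, 106 and 69.1 CPM in WT and 185, 683 and 297 CPM in Ahrr-/- replicates 1, 2 and 3, the same order of libraries within Ahrr-/- as Slc39a2. These are the highest of many correlations over 6 points that share genotype and library, and they carry no test.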

How the data were processed

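PolyA RNA of 6 cultures (3 WT, 3 Ahrr-/-) was read as single 75 bp reads from 100 ng of RNA, per the labels' protocols. The submitters' processing notes name CASAVA 1.8.2, fastp 0.20.0, STAR 2.7.10b, SAMtools 1.16.1, R 4.3.1, DESeq2 1.40.2 and the build mm10, without roles. The counting program, its use of strand and the annotation are not given in the sources used here. The authors deposited raw counts per gene for 53465 features without identifiers, and a normalized signal (counts divided by a size factor per library) for 16111 identified genes. Every signal value in the deposited table was a whole number of reads within 0.01, and these reads were the same set of rows as the raw counts of features with at least 10 counts in total. The reads so recovered, with their identifiers, were analysed. Unidentified features held 0.0232% to 0.0511% of a library and entered only its total.

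Groups and replicate numbers came from the sample titles. Counts were tested with edgeR 4.0.16 (quasi-likelihood, TMM, filterByExpr, genotype as the only term) in R 4.3.3, two-sided, with Benjamini-Hochberg adjustment over 11408 genes and a threshold of 0.05, and the script was tested on simulated data. Standard errors came from the fold change and its F statistic. Each library has its own mouse number, but nothing in the labels says whether cultures were split from shared stock. The p-values therefore weigh the genotype difference against the variation among these libraries only. Chi-square per degree of freedom between replicates of a group ran from 5.79 to 175, highest for the pairs with WT replicate 2, so no libraries were merged. Alternatives were RLE and upper-quartile factors, no filter, a floor on the mean of 50 counts, a replicate block, GC offsets (lowess, span 0.3), thinning, leaving out each library, and the tests of DESeq2 1.42.0 and limma 3.58.1 (voom). Positions, exon lengths and coding sequences are from GENCODE M21 (GRCm38), which matched 16088 of the 16111 genes, and promoter windows from RefSeq (GRCm38.p6), found for 9 of the 10 genes. The members and lists were chosen with earlier results of these data known, so adjusted p-values of list genes are descriptive. Named were the 10 members, Ahrr, the other tested ZIP, ZnT and metallothionein genes, up to 4 called genes of each other list with the largest change, and the 5 genes most like the mean of Mt1 and Mt2 and 5 most like Slc39a2. Other genes named (Gm45774, Mettl17, Slc39a1-ps, Gclc, Selenow, Ndrg1, Csrp1) were added after their values were seen.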

Additional observations from a re-analysis of the deposited data

How the results depend on the processing

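Over 465 values recomputed under 16 alternatives, 387 were rated the same. For named genes outside the 10, this meant the same sign and call. For the 10 it meant the same direction and call when past the threshold, and otherwise no gained call and a move of less than 1 SD. The summed metallothionein level was also held to 1 SD. Counts of genes were held only to a limit on their ratio, so counts rated the same could differ. The count of genes past the threshold was 2232 and became 1390 with the replicate block, 1229 with GC offsets and the replicate block, and 1251 after thinning, and ran from 694 to 3857 when 1 library was left out. Of the 10 zinc genes, 2 were past the threshold in each alternative that kept all 6 libraries, and 0 to 2 when 1 library was left out (0 without WT replicate 1, 1 without WT replicate 3). Over all lists 6 genes were past it, and 1 to 11 when 1 library was left out. There were 1 without WT replicate 1, 2 without WT replicate 3, 3 without Ahrr-/- replicate 2 and 11 without Ahrr-/- replicate 1. The log2 ratio of the summed Mt1 and Mt2 levels was -0.44 and ran from -0.55 to -0.35. Signs also changed, among genes not past the threshold, for Slc39a11 (-0.0030 with upper-quartile factors, and -0.0267 to 0.0817 with 1 library left out), Slc39a13 (0.0148 with GC offsets, 0.0249 with the replicate block too), Slc30a6 (-0.0408 with GC offsets, -0.0467 with the replicate block too, -0.14 after thinning) and Slc39a8 (-0.0650 with GC offsets and the replicate block, and -0.0608 to 0.233 with 1 library left out). Values near 0 of Mt2, Mtf1, Slc39a1, Slc39a10 and Slc30a5 took either sign across alternatives. The cause was not tested. Replicate numbers name different mice in the 2 genotypes, and libraries with the same number had deviations that correlated at -0.17, 0.07 and 0.13 across genes, so the numbers were not taken to pair the samples. The lowest depth, 3556106 counts, limits genes near 1 CPM most.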
